A study of Homo sapiens with 6 samples.

Results

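The matrix metalloproteinases (MMPs), the ADAMs, the ADAMTSs and the tissue inhibitors of metalloproteinases (TIMPs) were examined in SW480 cells after knockdown of the transcription factor ZEB1. The genes were chosen by symbol: the letters MMP, ADAM or ADAMTS followed by a number, or TIMP1 to TIMP4. This took 52 of the 32029 genes listed, namely 18 MMPs, 14 ADAMs, 16 ADAMTSs and 4 TIMPs. The rule itself uses symbols and no measured value.

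SW480 is an established human colorectal cancer line. Control cultures (siNC, n = 3, genotype given as WT) received a control siRNA that the study also calls siControl, and knockdown cultures (siZEB1, n = 3, genotype given as ZEB1 knockdown) received siRNA against ZEB1. Total RNA was taken with Trizol 48 h after transfection and sequenced. All 6 cultures were of the same line, siRNA lowers its target without removing the gene, and no other cell type was added. The comparison asks how lowering ZEB1, a repressor that binds E-box sequences and drives the epithelial to mesenchymal transition, altered transcript levels.

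MMPs, ADAMs and ADAMTSs are zinc proteases. MMPs cut collagens, laminins and other matrix proteins, and most are secreted, while the membrane-type members stay on the cell surface. ADAMs are mostly membrane-bound and release the outer parts of other membrane proteins, a step known as shedding, whereas ADAMTSs are secreted and process proteoglycans, procollagens and microfibrils. TIMPs bind the active site of these enzymes and block it, and tumour cells are known to draw on all 4 families when they invade.

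The read count per culture lay between 19040636 and 22357633, of which 0.100% to 0.108% fell on the 52 genes. ZEB1 itself was counted at 1247, 1276 and 908 reads in the siNC cultures and at 136, 132 and 162 reads in the siZEB1 cultures. It fell 7.22-fold, from 54.2 ± 6.23 to 7.51 ± 0.843 CPM (counts scaled to library size, mean ± SD, n = 3 each), with an adjusted p of 3.49e-12 by edgeR's quasi-likelihood test. Here and below p-values were two-sided and adjusted by Benjamini-Hochberg over all genes tested, and a gene was called where the adjusted p was under 0.05. The epithelial keratins KRT8 and KRT18 stood at 3454 and 1418 CPM in siNC cultures. Of 9 colon epithelial markers listed 8 were tested, and CEACAM5 stayed under 10 reads in every culture. Called higher were 3 (EPCAM 8.30-fold, VIL1 5.07-fold and ASCL2 1.74-fold) and lower 2 (CDX2 2.45-fold and LGR5 4.07-fold), against 18.8% and 21.0% of all genes. KRT8, KRT18 and KRT20 were not called, and CDX1 was not analysed here. Of the fibroblast markers 2 of the 7 listed passed the filter on low counts, of the leukocyte markers 1 of 5 and of the endothelial markers 2 of 3. The planned lists held 9, 6 and 5 genes, of which DCN, POSTN, PTPRC, CDH5 and KDR were not analysed here. Summed over each list, fibroblast markers came to 13.4 to 14.99 CPM in siNC and 13.4 to 15.3 CPM in siZEB1 cultures, leukocyte markers to 0.987 to 1.21 and 1.20 to 1.36 CPM, and endothelial markers to 2.11 to 2.95 and 1.62 to 2.65 CPM. COL1A2, COL3A1, LUM, PDGFRA, THY1, CD68, CD3E, CD79A, LYZ and TEK stayed under 10 reads in every culture. The fibroblast markers that passed were PDGFRB, which was higher after knockdown (3.98 and 5.33 CPM, log2 fold change 0.42, adjusted p = 0.0282), and COL1A1 (10.2 and 8.70 CPM, not called). The part of other cell types in the results below was not tested. In bulk RNA, a smaller number of cells making a transcript and less of it per cell cannot be told apart.

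Of the 52 genes, 31 reached 10 reads in at least 3 of the 6 cultures and were tested (8 MMPs, 9 ADAMs, 10 ADAMTSs and 4 TIMPs). None of them passed through the cultures of 1 group alone. Of these 31 genes, 13 were called, or 41.9%, beside 39.8% of all 15187 genes tested. The share called was therefore near that of the whole transcriptome. By direction, 3 genes were higher after knockdown (9.68%, against 18.8% of all genes) and 10 were lower (32.3%, against 21.0%). The median log2 fold change was -0.36 over the 31 genes and -0.0053 over all genes, and the control and knockdown cultures did not overlap for 15 of the 31 (48.4%, against 49.2% of all genes).

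The genes called lower were TIMP1, TIMP3, ADAM10, MMP11, ADAMTS7, ADAMTS8, ADAMTS10, ADAMTS14, ADAMTS15 and ADAMTS19. Those called higher were ADAM8, ADAM15 and MMP24. For 11 of the 13 the change exceeded 1.5-fold, the exceptions being ADAM10 and TIMP1, and no change of a called gene went far beyond 2-fold in either direction. The families differed in make-up: 6 of 10 ADAMTSs were lower and 0 higher, 2 of 4 TIMPs were lower and 0 higher, while ADAMs (2 higher, 1 lower of 9) and MMPs (1 higher, 1 lower of 8) were called both ways. Over all genes tested 21.0% were lower and 18.8% higher. The differences between families were not tested.

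**Figure D1:**
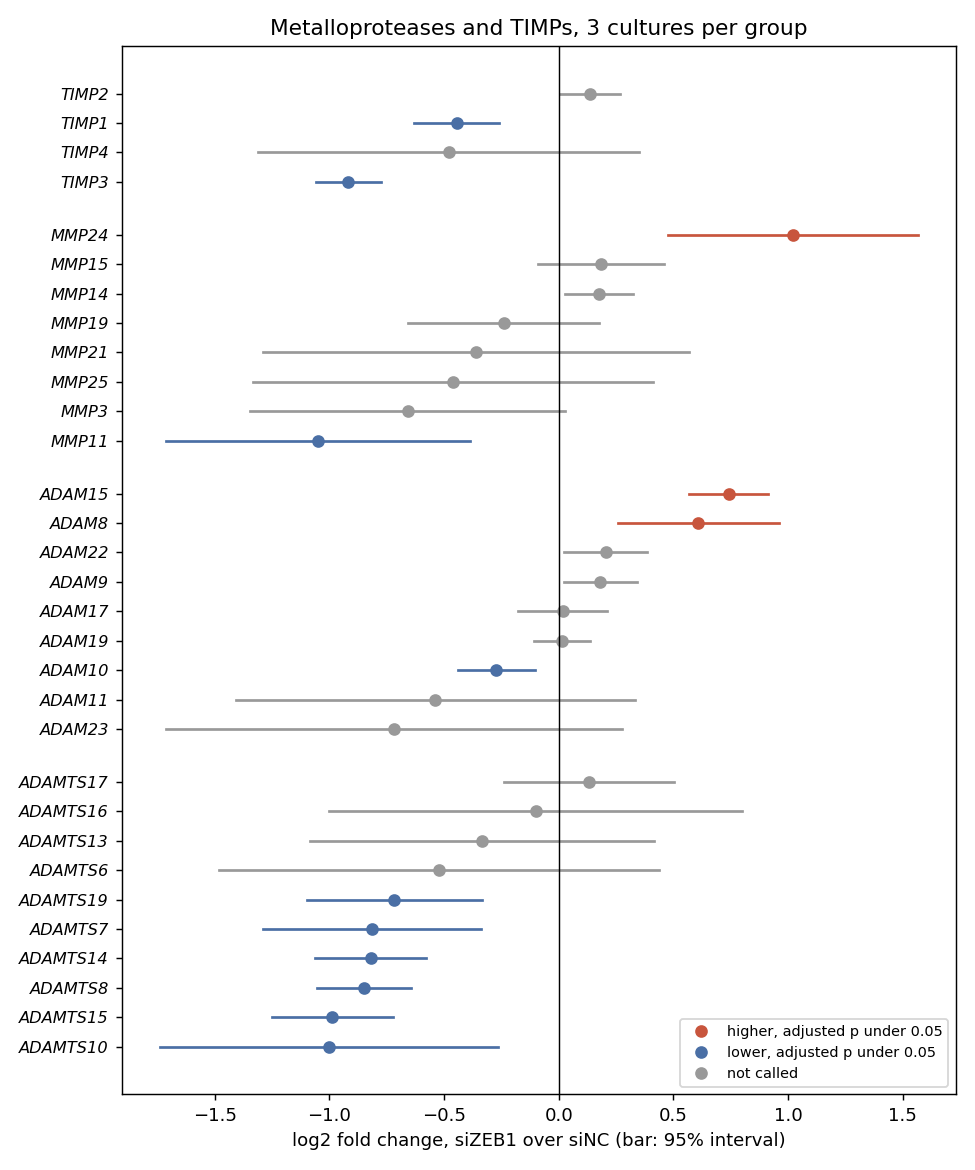
Log2 fold change of siZEB1 over siNC (horizontal axis) with its 95% confidence interval for each of the 31 genes tested, grouped by family. The 10 genes called lower and 3 called higher stand apart in color from the 18 not called. Among ADAMTSs 9 of 10 estimates lie below 0, and the widest intervals belong to genes with few reads.

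TIMPs were the only one of the 4 families in which every listed gene was tested. TIMP3, the inhibitor that is held in the extracellular matrix and blocks ADAM17 and several ADAMTSs as well as MMPs, was measured at 68.8, 66.2 and 67.1 CPM in siNC and 35.8, 35.0 and 36.2 CPM in siZEB1 cultures. The 3 cultures within each group lay close together and the groups were far apart. TIMP3 fell 1.89-fold (log2 fold change -0.92, SE 0.068, adjusted p = 1.31e-08), the smallest p among the 31 genes tested. It lies at chr22:32801701-32863043 on the plus strand of GRCh38, within SYN3.

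TIMP1, a secreted inhibitor that acts on most soluble MMPs and only weakly on membrane-type MMPs, was the most abundant TIMP per exonic length, but not in CPM. It was measured at 60.0, 61.9 and 71.4 CPM in siNC and 51.0, 49.4 and 41.5 CPM in siZEB1 cultures, so that the highest knockdown culture was below the lowest control. TIMP1 fell 1.36-fold (log2 fold change -0.45, SE 0.087, adjusted p = 0.000558). Its locus, chrX:47582313-47586789 on the plus strand, lies within SYN1.

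TIMP2, which inhibits MMP2 and also joins MMP14 in the complex that activates it, did not pass the test. Its values were 91.0, 96.7 and 93.5 CPM in siNC and 99.6, 106 and 104 CPM in siZEB1 cultures, without overlap (log2 fold change 0.14, unadjusted 95% interval 0.0043 to 0.27, adjusted p = 0.0943). TIMP4, the fourth inhibitor, was barely expressed, with 10, 17 and 19 reads in siNC and 9, 12 and 9 reads in siZEB1 cultures (log2 fold change -0.48, SE 0.39, adjusted p = 0.360).

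To set the TIMPs side by side, CPM were divided by exonic length in kilobases (RPKM). The 4 TIMPs summed to 70.3, 72.2 and 78.1 RPKM in siNC and 58.8, 58.8 and 53.6 RPKM in siZEB1 cultures. TIMP1 made up 56.9% of the mean sum in siNC and 53.8% in siZEB1 cultures. These shares depend on the length divisor, which was 1541 bp for TIMP1, 5633 bp for TIMP2 and 4603 bp for TIMP3. In CPM TIMP1, TIMP2 and TIMP3 stood at 64.5, 93.7 and 67.4 in siNC and at 47.3, 103 and 35.7 in siZEB1 cultures. TIMP2 took 23.0%, 23.8% and 21.2% of the sum in controls and 30.1%, 31.9% and 34.4% after knockdown, while TIMP3 went from 21.3%, 19.9% and 18.7% to 13.2%, 12.9% and 14.7%. In siNC cultures TIMP2 and TIMP3 were thus near each other, at 16.6 ± 0.508 and 14.6 ± 0.294 RPKM, and in siZEB1 cultures they were at 18.3 ± 0.554 and 7.75 ± 0.133 RPKM. The summed RPKM of TIMPs divided by that of MMPs was 3.39, 3.32 and 3.42 in siNC and 2.35, 2.48 and 2.35 in siZEB1 cultures. This ratio is of transcripts, depends on the length divisors too and gives no measure of protein or of enzyme activity.

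**Figure D2:**
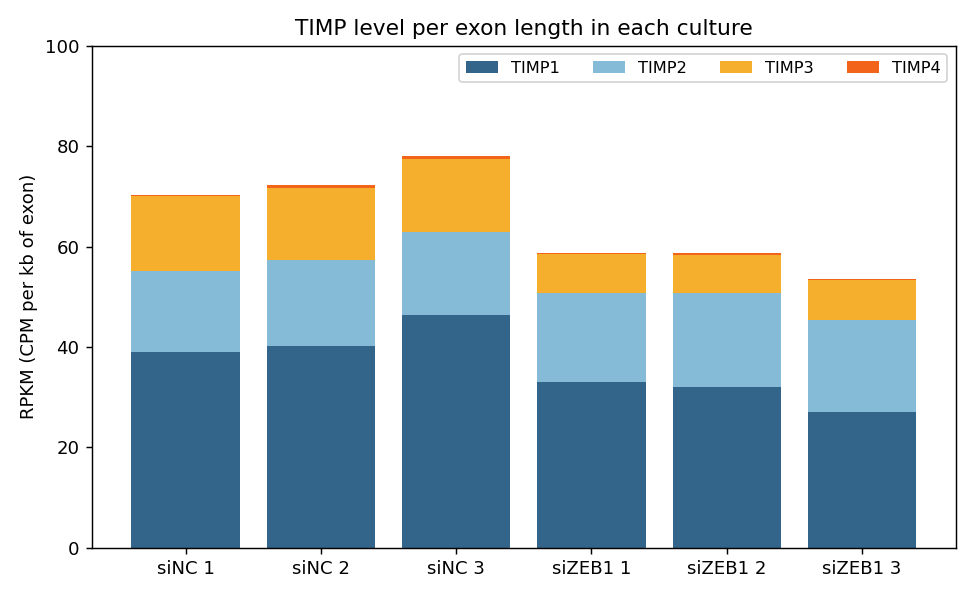
Level per exonic length (RPKM, vertical axis from 0) of TIMP1, TIMP2, TIMP3 and TIMP4 stacked for each of the 6 cultures. The bars of the siNC cultures reach 70.3 to 78.1 RPKM and those of the siZEB1 cultures 53.6 to 58.8 RPKM, with smaller TIMP1 and TIMP3 segments and a TIMP4 segment too thin to see.

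Among MMPs, the membrane-type MMP14 (MT1-MMP), which cuts fibrillar collagen at the cell surface and activates MMP2, accounted for most of the transcript. It made up 78.9% of the summed MMP level per length in siNC cultures and 81.6% in siZEB1 cultures. MMP14 was measured at 75.4, 73.8 and 81.0 CPM in siNC and 93.5, 84.3 and 82.5 CPM in siZEB1 cultures. All knockdown values were above all control values, but by a small margin, and the gene missed the threshold (log2 fold change 0.18, unadjusted 95% interval 0.029 to 0.33, adjusted p = 0.0539). It was called in 5 of 13 alternative analyses. MMP15, another membrane-type MMP, was at 7.37 ± 0.958 and 8.38 ± 0.851 CPM (adjusted p = 0.281).

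Both MMPs that passed the test were scarce. MMP24 (MT5-MMP, a membrane-type enzyme known mainly from neural tissue) had 18, 29 and 19 reads in siNC and 36, 47 and 39 reads in siZEB1 cultures, every knockdown count being above every control count. It rose 2.04-fold (log2 fold change 1.02, SE 0.26, adjusted p = 0.00427). MMP24 lies at chr20:35226654-35277000 on the plus strand. The genes MMP24OS and AL121753.2, annotated on the opposite strand, together cover 21.8% of its exonic bases, and the part of each was not separated. Whether the counting used the strand is not given in the sources used here, so part of its reads may belong to these genes. MMP24OS had 211, 310 and 287 reads in siNC cultures and was lower after knockdown (log2 fold change -0.63, adjusted p = 0.00196), the opposite direction to MMP24. AL121753.2 had 22, 29 and 29 reads in siNC cultures and was not called (log2 fold change 0.17).

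MMP11 (stromelysin-3, an MMP that furin activates before secretion) had 30, 35 and 31 reads in siNC and 17, 8 and 17 reads in siZEB1 cultures. It fell 2.08-fold (log2 fold change -1.05, SE 0.31, adjusted p = 0.0131), the steepest fall among the genes called. Without siZEB1 replicate 2, the culture with 8 reads, the adjusted p was 0.0731. MMP11 lies at chr22:23768226-23784316 on the plus strand. CHCHD10 on the opposite strand covers 4.21% of its exonic bases and was itself lower, 2.06-fold (log2 fold change -1.04, adjusted p = 9.51e-07). The part of shared reads in the change of MMP11 was not tested.

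The remaining MMPs tested were all at low levels. MMP3 (stromelysin-1) had 19, 32 and 29 reads in siNC and 14, 12 and 20 in siZEB1 cultures (log2 fold change -0.66, adjusted p = 0.119). MMP19, MMP21 and MMP25 were not called either, with log2 fold changes of -0.24, -0.36 and -0.46 and intervals that spanned 0. At this depth a fall of 2-fold in MMP21 or MMP25 could not be told from none, since their intervals reached from -1.29 to 0.57 and from -1.33 to 0.41.

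ADAMs held the most abundant transcripts of the proteases. ADAM19, which sheds neuregulins, reached 291, 303 and 278 CPM in siNC and 299.8, 277 and 303 CPM in siZEB1 cultures. The groups overlapped throughout (log2 fold change 0.014, 95% interval -0.11 to 0.14, adjusted p = 0.873). Per exonic length ADAM19 was at 37.7 ± 1.65 and 38.1 ± 1.84 RPKM, or 49.1% of the summed ADAM level in siNC and 45.4% in siZEB1 cultures.

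ADAM15, an ADAM whose disintegrin domain carries an integrin-binding motif, showed the clearest rise. Its values were 45.7, 52.9 and 57.4 CPM in siNC and 85.8, 92.3 and 82.7 CPM in siZEB1 cultures. ADAM15 rose 1.67-fold (log2 fold change 0.74, SE 0.082, adjusted p = 1.49e-06), from 7.90 to 13.2 RPKM. In siNC cultures it was at a similar level per length to ADAM10 (7.55 RPKM), and in siZEB1 cultures the same pair stood at 13.2 and 6.26 RPKM. This order depends on the length divisor, which was 6584 bp of annotated exon for ADAM15 and 16168 bp for ADAM10. In CPM ADAM15 was below ADAM10 in both groups, at 52.0 and 122 in siNC and at 86.9 and 101 in siZEB1 cultures. The gene is at chr1:155050566-155062775, plus strand, and shares 4.65% of its exonic bases with DCST1, which had at most 19 reads in any control culture.

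ADAM8, a catalytically active ADAM known from leukocytes and from invasive tumour cells, was scarce but varied little within groups. It had 56, 58 and 46 reads in siNC and 73, 74 and 75 reads in siZEB1 cultures, or 2.54 ± 0.132 and 3.88 ± 0.0362 CPM. It rose 1.53-fold (log2 fold change 0.61, SE 0.17, adjusted p = 0.00745). ADAM8 lies on the minus strand at chr10:133262403-133276868. Of the 5 leukocyte markers listed, CD14 alone passed the filter, with 8, 14 and 8 reads in siNC and 15, 12 and 17 reads in siZEB1 cultures (log2 fold change 0.69, adjusted p = 0.167), and the other 4 stayed under 10 reads in every culture. Their part in the rise of ADAM8 was not tested.

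ADAM10 and ADAM17 are the best known sheddases. ADAM10, which cuts Notch receptors and cadherins, was measured at 131, 125 and 109 CPM in siNC and 96.2, 95.2 and 112 CPM in siZEB1 cultures, so that siZEB1 replicate 3 was above siNC replicate 3. The gene was lower by 17.1% (log2 fold change -0.27, SE 0.080, adjusted p = 0.0117). Leaving out siNC replicate 1 or 2, or siZEB1 replicate 1 or 2, ended the call, with adjusted p of 0.0581, 0.0515, 0.0727 and 0.0648. ADAM17, which releases tumour necrosis factor and ligands of the EGF receptor, was at 54.4, 57.3 and 44.9 CPM in siNC and 52.4, 47.9 and 58.4 CPM in siZEB1 cultures (log2 fold change 0.018, 95% interval -0.18 to 0.21, adjusted p = 0.897).

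ADAM9, another widely expressed sheddase, was at 114, 109 and 92.7 CPM in siNC and 116, 118 and 125 CPM in siZEB1 cultures. The groups did not overlap, yet the gene was not called (log2 fold change 0.18, unadjusted 95% interval 0.022 to 0.34, adjusted p = 0.0666). ADAM22, ADAM23 and ADAM11 lack an active protease site and serve as receptors for LGI proteins in the nervous system. ADAM22 was at 30.0 ± 3.14 and 34.6 ± 1.17 CPM (adjusted p = 0.0655), while ADAM23 and ADAM11 had at most 28 reads in any culture and were not called.

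ADAMTSs were the family with the most genes lower after knockdown, 6 of 10 tested (60.0%), against 21.0% of all genes. Summed per exonic length, they stood at 11.8, 13.2 and 13.2 RPKM in siNC and 7.20, 7.55 and 7.39 RPKM in siZEB1 cultures. The median log2 fold change of the 10 tested was -0.77, against -0.0053 over all genes. ADAMTS8 gave 41.5% of the sum in siNC and 39.6% in siZEB1 cultures.

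ADAMTS8 (METH-2), a secreted protease that cuts proteoglycans and restrains blood vessel growth, was measured at 457, 566 and 475 reads in siNC and 263, 263 and 230 reads in siZEB1 cultures, or 23.8 ± 2.03 and 13.2 ± 1.04 CPM. It fell 1.80-fold (log2 fold change -0.85, SE 0.097, adjusted p = 2.38e-06). ADAMTS15, a protease of the proteoglycans aggrecan and versican, was at 13.7, 14.1 and 14.3 CPM in siNC and 5.56, 8.01 and 7.63 CPM in siZEB1 cultures. It fell 1.99-fold (log2 fold change -0.99, SE 0.12, adjusted p = 7.16e-06). In both genes every knockdown culture was below every control.

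These 2 genes are neighbours. ADAMTS8 occupies chr11:130404925-130428993 on the minus strand and ADAMTS15 chr11:130448974-130476641 on the plus strand, so that they are read away from each other across a gap of 19980 bp. Other genes within 500000 bp, looked at after the values of the pair were seen, were in no case called lower. PRDM10, APLP2, ZBTB44 and SNX19 were not called, with log2 fold changes of 0.11, 0.056, -0.0057 and 0.060. ST14, which encodes the membrane serine protease matriptase, rose instead (log2 fold change 1.15, adjusted p = 0.00032), as did AP003486.1 (log2 fold change 0.70, adjusted p = 0.0321).

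ADAMTS14, a procollagen N-propeptidase, was at 11.7, 13.4 and 14.2 CPM in siNC and 7.20, 6.97 and 8.05 CPM in siZEB1 cultures, without overlap. It fell 1.77-fold (log2 fold change -0.82, SE 0.11, adjusted p = 2.13e-05). ADAMTS19, a member with few known substrates, had 112, 115 and 76 reads in siNC and 57, 45 and 65 in siZEB1 cultures and fell 1.64-fold (adjusted p = 0.00431). AC008591.1 and ADAMTS19-AS1 on the opposite strand together cover 3.29% of its exonic bases. ADAMTS19-AS1 was not called (log2 fold change -0.68, adjusted p = 0.179), and AC008591.1 had 1 read over all cultures. The part of shared reads in the fall of ADAMTS19 was not tested. ADAMTS7, which cuts the cartilage protein COMP and is known from the vessel wall, had 44, 57 and 52 reads in siNC and 29, 25 and 25 in siZEB1 cultures and fell 1.76-fold (adjusted p = 0.00785).

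ADAMTS10, which takes part in the assembly of fibrillin microfibrils, was the least certain of the 6. It had 22, 38 and 35 reads in siNC and 14, 8 and 21 in siZEB1 cultures. Scaled to depth the groups overlapped, siNC replicate 1 (1.03 CPM) being just below siZEB1 replicate 3 (1.10 CPM). ADAMTS10 fell 2.02-fold (SE 0.35 on the log2 scale, adjusted p = 0.0300). Without siNC replicate 2 or 3, or siZEB1 replicate 1 or 2, the adjusted p was 0.100, 0.0716, 0.0782 and 0.139.

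The other ADAMTSs tested were not called. ADAMTS17, a microfibril-associated member, was at 3.97 ± 0.786 and 4.33 ± 0.628 CPM, the only ADAMTS estimate above 0 (log2 fold change 0.13). ADAMTS6, ADAMTS13 and ADAMTS16 had at most 35 reads in any culture and gave log2 fold changes of -0.52, -0.33 and -0.10. ADAMTS13, the protease of von Willebrand factor, had 26, 23 and 35 reads in siNC and 12, 33 and 16 in siZEB1 cultures, a wide overlap.

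**Figure D3:**
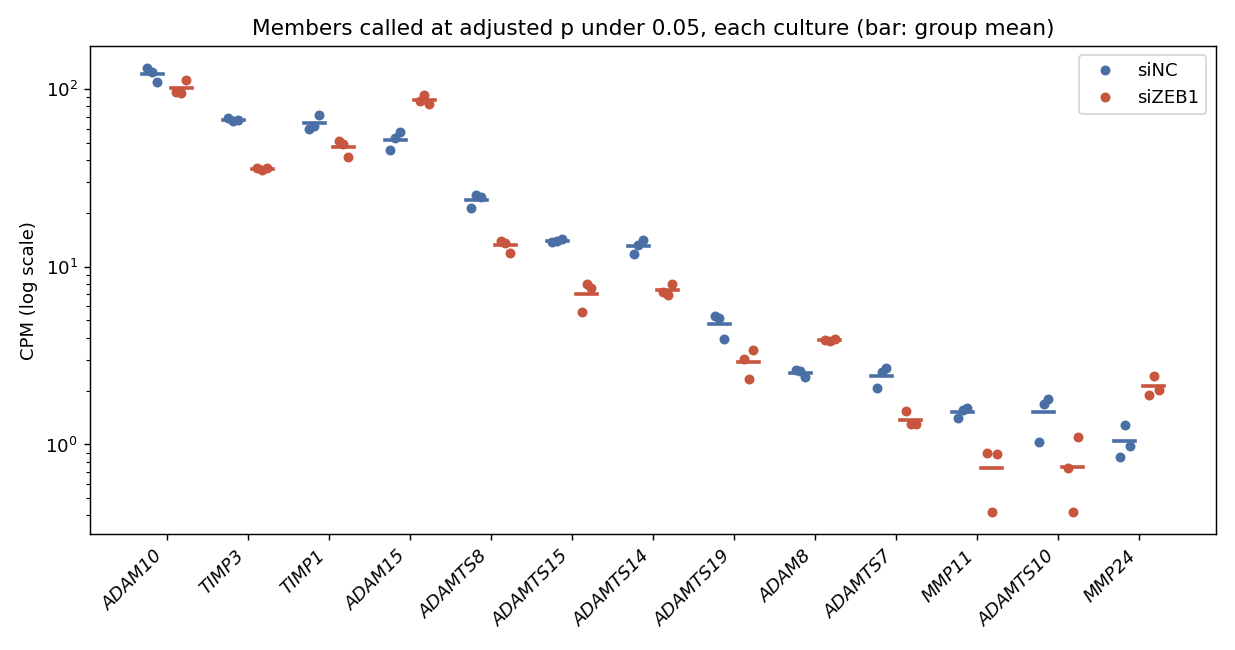
Level (CPM, log axis) of the 13 called genes in each of the 3 siNC and 3 siZEB1 cultures, 1 point per culture. The groups separate for 11 genes and overlap for ADAM10 and ADAMTS10. The points span from 0.416 CPM (MMP11 and ADAMTS10 in siZEB1 replicate 2) to 131 CPM (ADAM10 in siNC replicate 1).

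The other 21 genes were at most barely expressed in SW480, with no more than 16 reads in any culture, and were not tested. They were MMP1, MMP2, MMP8, MMP9, MMP10, MMP13, MMP16, MMP17, MMP20, MMP28, ADAM20, ADAM21, ADAM28, ADAM32, ADAM33, ADAMTS2, ADAMTS3, ADAMTS4, ADAMTS9, ADAMTS12 and ADAMTS18. For 11 of them all 6 cultures together gave under 10 reads. The gelatinases, which cut type IV collagen of basement membranes, were among these: MMP2 had 3, 0 and 1 reads in siNC and 2, 8 and 0 in siZEB1 cultures. MMP9 had 8, 6 and 7 reads in siNC and 8 reads in each siZEB1 culture, and the collagenase MMP1 had 0, 6 and 1 against 0, 1 and 0. A count of 0 in a culture allowed up to 3 reads, or 0.134 to 0.159 CPM. MMP7 was not analysed here.

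The collagenase and stromelysin genes of chromosome 11 lie together at chr11:102576835-102955734, where 6 of the listed MMPs are found (MMP20, MMP8, MMP10, MMP1, MMP3 and MMP13). MMP3 alone of these passed the filter. The other 5 had between 2 and 12 reads over all cultures.

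Promoter sequence was examined for E-boxes of the letters CACCTG, or CAGGTG when read on the other strand, to which ZEB1 is known to bind. RefSeq promoter windows (GRCh38.p14, 250 bases before to 50 after each transcription start) were given for 31 of the 52 genes. ADAMTS10 has 2 annotated starts, which gives 32 windows. The E-box was found in 6 of them (18.8%), beside 20.6% of all 35116 windows. Among genes called higher 1 of 3 windows held it, among genes called lower 0 of 9, and among those tested and not called 4 of 11. ADAM8 was the called gene with matches. Its stretches are shown beside those of MMP15 and ADAM19, which were not called, since all of these hold the same hexamer. ADAM17 and ADAMTS17, also not called, hold it as well and are not shown. Each is 30 bases on the strand of the gene, with the E-box in capitals.
ADAM8, chr10:133277013-133277042, minus strand: cctgagtttcctCACCTGtgcaagggagga
ADAM8, chr10:133276957-133276986, minus strand: ggaccccgccccCAGGTGccgcgcgccccg
MMP15, chr16:58025608-58025637, plus strand: aaacggaccgccCACCTGtcgggcctcggc
MMP15, chr16:58025632-58025661, plus strand: ctcggccgcccgCACCTGcttgtgagaagc
ADAM19, chr5:157575942-157575971, minus strand: cgcggtctccctCACCTGagccagccccgc
A match shows only that the letters are present. Genes with the hexamer were found among those that rose and those not called. The AP-1 motif TGANTCA, searched on both strands, was in 3 of the 32 windows of listed genes (9.38%), in 0 of the 23 windows of genes tested and in 7.71% of all windows.

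Genes that act on these proteases, or that they act on, were counted in 5 lists. The first held 15 genes of protease maturation and trafficking, all tested, of which 1 was higher and 5 lower (median log2 fold change -0.22). Over all genes 18.8% were higher and 21.0% lower, so that the 6 of 15 called were near the 39.8% of the whole transcriptome. FURIN, the convertase that removes the inhibitory propeptide of many MMPs, ADAMs and ADAMTSs, was at 127 CPM in siNC and 126 CPM in siZEB1 cultures (log2 fold change -0.0084, adjusted p = 0.932). RHBDF1 and RHBDF2, the iRhoms that escort ADAM17 to the surface, were not called. FRMD8, of the same list, was lower by 13.9% (log2 fold change -0.22, adjusted p = 0.0162) and lost the call in 3 of 13 alternatives.

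The tetraspanins of the TspanC8 group, which carry ADAM10 out of the endoplasmic reticulum and steer it to its substrates, moved in both directions. Of the 6, 3 were lower and 1 higher, where 21.0% of all genes were lower and 18.8% higher. This subgroup was not tested as a set. TSPAN14 was measured at 69.6, 72.2 and 74.1 CPM in siNC and 43.6, 41.3 and 44.0 CPM in siZEB1 cultures (log2 fold change -0.74, adjusted p = 1.65e-07). TSPAN5 (-0.74) and TSPAN17 (-0.76) fell by similar amounts. TSPAN15, the partner with which ADAM10 cuts N-cadherin, rose from 17.9, 15.9 and 16.6 CPM to 26.4, 23.3 and 24.0 CPM (log2 fold change 0.55, adjusted p = 9.42e-05). SH3PXD2B, a scaffold of the invadopodia to which MMP14 is delivered, was also lower (log2 fold change -0.55). SH3PXD2A, of the same list, was not called (log2 fold change -0.18, adjusted p = 0.223).

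Regulators outside the TIMPs were lower in 3 of 5 tested and higher in 0 (median -0.38), beside 21.0% and 18.8% of all genes. LRP1, an endocytic receptor that clears MMPs, ADAMTSs and TIMPs from the cell surface, went from 20.9, 25.8 and 23.5 CPM to 13.1, 13.5 and 13.6 CPM (log2 fold change -0.80, adjusted p = 3.91e-06). RECK, a membrane-anchored MMP inhibitor, and PCOLCE, an enhancer of procollagen C-proteinase, were lower too (log2 fold changes -0.38 and -0.44, adjusted p = 0.0228 and 0.0313). RECK lost the call without siNC replicate 1 or 2 or siZEB1 replicate 1 or 2 (highest adjusted p = 0.121), and PCOLCE without siNC replicate 2 or 3 or siZEB1 replicate 1 or 2 (highest 0.131). BSG (EMMPRIN, known to induce MMPs) was at 836 and 866 CPM and was not called.

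Related metalloproteases and ADAMTS-like proteins were counted together. The ADAMTS-like proteins resemble ADAMTSs but lack the protease domain. In this mixed list 6 of 8 tested were lower and 0 higher (median -0.34), where 21.0% of all genes were lower and 18.8% higher. The largest fall was in ADAMTSL5 (log2 fold change -0.68, adjusted p = 0.000775), followed by THSD4, ADAMTSL2 and the astacin protease TLL2 (-0.48, -0.40 and -0.40). BMP1, the procollagen C-proteinase, was lower by a small amount (-0.27, adjusted p = 0.0475). The metalloprotease ECE1 was lower by 16.8% (-0.27, adjusted p = 0.00504) and kept its call in all 13 alternatives. The call of THSD4 was lost without siNC or siZEB1 replicate 1 (adjusted p of 0.0655 and 0.0837), that of TLL2 without siNC replicate 3 or siZEB1 replicate 1 or 2 (up to 0.113), and that of BMP1 in 7 alternatives, 4 of them with a culture left out (siNC replicate 2 or 3, siZEB1 replicate 2 or 3, up to 0.201).

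The proteins that ADAM10 or ADAM17 shed did not move one way. Of 23 tested, 9 were higher and 4 lower (median 0.038), against 18.8% and 21.0% of all genes. Among the 9, CX3CL1, TGFA and IL6R lost the call in 9, 8 and 6 of the 13 alternatives, with adjusted p of up to 0.221, 0.143 and 0.156. These losses came when any of siNC replicates 1 and 2 or siZEB1 replicates 1 and 3 (CX3CL1), siNC replicates 1 to 3 or siZEB1 replicates 1 and 2 (TGFA), or siNC replicates 2 and 3 or siZEB1 replicates 1 and 2 (IL6R) was left out, and under some other settings. The junction proteins CDH1 and F11R rose most (log2 fold changes 4.01 and 3.11), F11R from 5.83, 6.30 and 6.79 CPM to 55.1, 58.9 and 48.9 CPM. SDC4 and PTK7 rose by 1.06 and 0.91 on the log2 scale. NOTCH1, an ADAM10 substrate, was lower (log2 fold change -0.77, adjusted p = 1.24e-07).

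Matrix substrates were likewise mixed, with 3 higher and 5 lower of 13 tested (median -0.17), against 18.8% and 21.0% of all genes. Among those lower, FBLN1 (log2 fold change -0.17, adjusted p = 0.0267) lost the call in 6 of 13 alternatives, with adjusted p of up to 0.126. In 5 of these a culture was left out. The laminin chain LAMB3 rose (log2 fold change 0.91), as did the basement membrane collagen COL4A2 (0.73), while the laminin chain LAMA5 fell (-0.68). Fibronectin (FN1) fell from 13.3, 14.3 and 11.7 CPM to 7.05, 6.24 and 7.26 CPM (log2 fold change -0.94, adjusted p = 5.96e-06). COL1A1, the fibrillar collagen chain above the filter, was not called (-0.22).

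**Figure D4:**
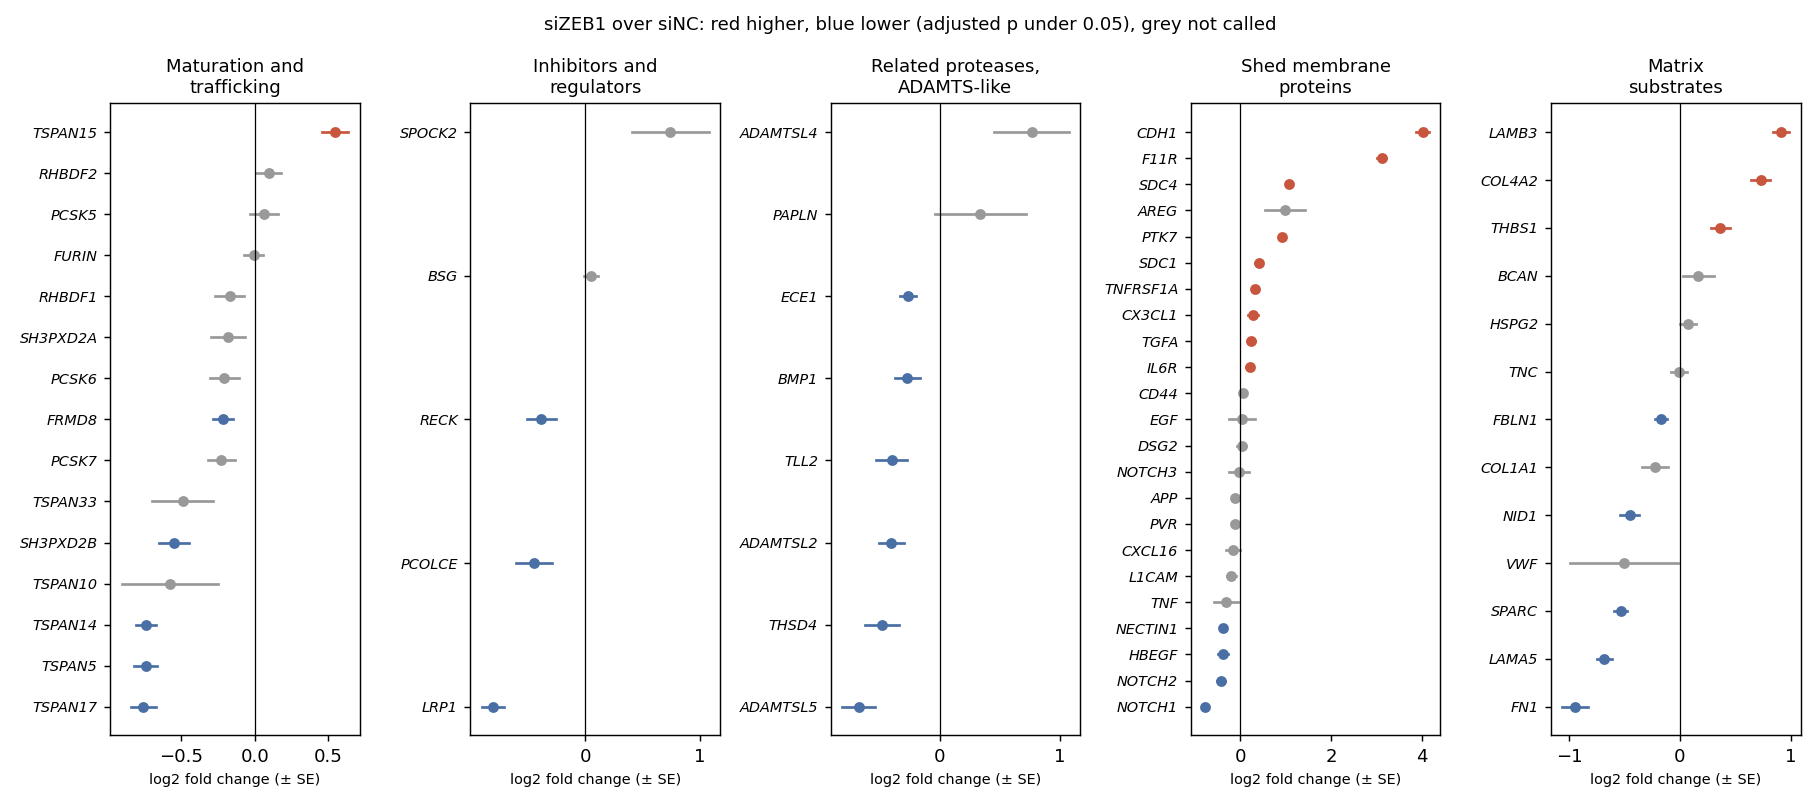
Log2 fold change of siZEB1 over siNC with its standard error for each tested gene of the 5 lists. Regulators outside the TIMPs, and the list of related metalloproteases and ADAMTS-like proteins, hold 0 genes called higher. Shed proteins (9 higher, 4 lower) and matrix substrates (3 higher, 5 lower) spread to both sides, up to CDH1 at 4.01.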

How the data were processed

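RNA-seq of 6 SW480 cultures was used. Per the labels and the submitters' processing notes, the authors trimmed reads with Trimmomatic, aligned them to hg38 with HISAT2, handled alignments with SAMtools and counted reads per gene with featureCounts. The deposited values are raw counts per gene, 1 table per culture. Versions, annotation and strand setting are not given in the sources used here. Samples were grouped by their labelled treatment.

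Genes with 10 or more reads in at least 3 cultures (15187) were tested with the quasi-likelihood test of edgeR 4.0.16 (R 4.3.3, limma 3.58.1), with TMM normalization, a prior count of 0.125, condition as the only term and Benjamini-Hochberg adjustment. The study's methods give thresholds for these calls and tie no test to them. CPM used TMM-scaled library sizes. Exonic lengths and coordinates came from GENCODE 29 (GRCh38), in which 31059 of 32029 genes matched by identifier. Promoters came from RefSeq. The code was checked on simulated data. Python 3.11.15 with pandas 2.3.3 and matplotlib 3.10.9 made the summaries.

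The genes and lists were chosen with earlier results of these data known. All members are named, with values by culture for those called or most abundant per length, and for related lists up to 4 called genes with the largest change. FURIN, RHBDF1, RHBDF2, RECK, PCOLCE, BSG, BMP1, COL1A1, PDGFRB, CX3CL1, TGFA and IL6R were named after their values were seen, as were genes that overlap or neighbour a member. The same holds for FRMD8, FBLN1, ECE1, SH3PXD2A, EPCAM, VIL1, ASCL2, CDX2, LGR5 and KRT20. The planned description of protein motifs was not run, and 1 gene of the related lists is not reported here. Alternatives were DESeq2 1.42.0, other size factors and filters, other thresholds, a replicate block and leaving out each culture. Within groups, the chi-square of read counts between cultures was 2.27 to 9.58 per degree of freedom, so none was a copy. Floors cover counting error only.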

Additional observations from a re-analysis of the deposited data

How the results depend on the processing

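Of the 13 genes called, 10 kept their call and direction in all 13 alternatives that used the same threshold. Other thresholds were counted apart. The other 3, ADAM10, ADAMTS10 and MMP11, lost it when single cultures were left out, with adjusted p of up to 0.0727, 0.139 and 0.0731. Leaving out 1 culture gave 3 to 5 genes higher and 7 to 10 lower among the proteases and TIMPs, against 3 and 10 (5 higher without siNC replicate 1, where ADAM9 and ADAM22 were called), and 10 to 13 higher and 18 to 23 lower among the related lists, against 13 and 23. A fold over 1.5 with an unadjusted p under 0.001 left 1 higher and 4 lower, and 6 higher and 8 lower in the related lists, where 8 were also lower at an unadjusted p under 0.05. With no filter, ADAMTS9 (log2 fold change -1.65, adjusted p = 0.0430) and MMP17 (-2.89, adjusted p = 0.0254) were called lower as well.

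MMP14 was called with DESeq2 (adjusted p = 0.0493), with median-of-ratios size factors (0.0453), with 10 reads required in every culture (0.0490), without siNC replicate 3 (0.0152) and without siZEB1 replicate 3 (0.0361). Sign changes were seen only in genes that were not called, when 1 culture was left out. ADAM17 ranged from -0.078 (without siNC replicate 3; -0.060 without siZEB1 replicate 3) to 0.090, ADAM19 from -0.017 (without siNC replicate 3, with -0.0018 and -0.010 without siZEB1 replicates 1 and 3) to 0.053, ADAMTS16 from -0.38 to 0.46 (without siNC replicate 2, with 0.086 without siZEB1 replicate 2) and ADAMTS6 from -0.80 to 0.054 (without siNC replicate 1). The cause was not tested.

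The log2 fold change of ZEB1 lay between -2.95 and -2.79 when cultures were left out. The deviations of same-numbered cultures correlated at -0.105, -0.145 and -0.334, and those of differently numbered cultures at -0.157 to 0.256. No shared deviation of same-numbered cultures was thus seen. With 3 cultures per group these values cannot show whether such cultures were handled together. With the replicate number as a block, 3 proteases and TIMPs were higher and 10 lower, ZEB1 was at -2.85, the related lists had 10 higher and 20 lower, and 4978 of all genes were called against 6052. Depth limited the scarce genes: 9 of the 18 not called had a 95% interval wider than 1 log2 unit.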
